A study of Homo sapiens with 12 samples.

Results

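The spliceosome removes introns with small nuclear ribonucleoproteins (snRNPs), particles built from a small nuclear RNA (snRNA) and a set of proteins. The results below describe the mRNAs of 44 snRNP proteins and close partners, picked by gene symbol out of the 59324 rows of a gene expression table. They were measured by RNA sequencing in MDA-MB-468 cells, an established line from a triple-negative breast tumour. The 12 libraries formed 4 groups of 3. SAHA cells received SAHA (vorinostat), an inhibitor of zinc-dependent histone deacetylases, at 10 µM for 12 h. Sonidegib cells received sonidegib, an inhibitor of the Hedgehog receptor component Smoothened, at 10 µM for 72 h. Combination cells were pretreated with sonidegib at 10 µM for 72 h and received SAHA at 10 µM for 12 h. Control cells carry the label control, and the labels do not say how long they were kept or what vehicle they received. The sources also do not say whether sonidegib stayed on the cells during SAHA, or whether libraries within a group stem from independent cultures. The p-values therefore measure the spread between these libraries, which may be technical.

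The U1 snRNP recognises the 5′ splice site and the U2 snRNP the branch point, after which the U4/U6.U5 tri-snRNP joins and the spliceosome is rearranged into its active form. The Sm proteins form a ring around a uridine-rich Sm site in the U1, U2, U4 and U5 snRNAs, while the LSm proteins LSM2 to LSM8 form a similar ring on the 3′ end of U6. Introns of a rare class are removed by a minor spliceosome that uses U11 and U12 in place of U1 and U2. The members fall into 7 subsets by role: 7 Sm proteins, 7 LSm proteins, 3 proteins specific to U1, 11 of U2, 9 of U5 and the U4/U6.U5 tri-snRNP, 3 of U11/U12, and 4 that act outside the snRNPs.

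The sequences that bring these proteins together are short. Below, 5 snRNAs on which the Sm ring assembles are written 5′ to 3′ as DNA letters from GENCODE release 29 (GRCh38). Capitals mark the Sm site, found as ATTTNTG or ATTTTTTG. Each Sm site was found once in its RNA.
U1, RNU1-1, chr1:16514122-16514285, minus strand: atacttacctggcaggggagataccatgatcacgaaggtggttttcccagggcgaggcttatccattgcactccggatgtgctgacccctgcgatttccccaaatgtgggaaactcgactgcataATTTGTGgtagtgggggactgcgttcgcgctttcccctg
U2, RNU2-1, chr17:43233787-43233977, minus strand: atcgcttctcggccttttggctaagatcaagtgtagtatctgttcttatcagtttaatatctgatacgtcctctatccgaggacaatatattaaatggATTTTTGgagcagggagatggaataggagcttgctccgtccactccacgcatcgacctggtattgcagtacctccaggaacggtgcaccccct
U4, RNU4-2, chr12:120291763-120291903, minus strand: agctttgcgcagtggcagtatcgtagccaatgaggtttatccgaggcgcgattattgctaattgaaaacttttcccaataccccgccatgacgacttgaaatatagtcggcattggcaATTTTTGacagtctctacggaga
U11, RNU11, chr1:28648600-28648733, plus strand: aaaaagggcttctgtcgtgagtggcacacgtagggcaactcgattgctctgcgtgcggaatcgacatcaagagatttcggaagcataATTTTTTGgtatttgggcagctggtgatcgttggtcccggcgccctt
U12, RNU12, chr22:42615244-42615393, plus strand: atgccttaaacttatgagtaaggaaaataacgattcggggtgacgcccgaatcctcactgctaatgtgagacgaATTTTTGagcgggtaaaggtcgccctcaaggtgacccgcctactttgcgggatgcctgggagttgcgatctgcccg

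Values are TPM, which give each gene's part of the transcripts after correction for length. They keep no read counts, so sequencing depth is unknown. Differences between groups are log2 ratios on the TPM + 1 scale, given ± their standard error (SE) in limma's model, and a gene was called higher or lower at an adjusted p under 0.05. Because TPM are shares of a bulk sample, fewer cells expressing a gene and less RNA per cell cannot be told apart. EGFR, which this line expresses highly, stood at 516 to 678 TPM. Of the receptors that triple-negative tumours lack, PGR was at 0 in every library and ESR1 did not exceed 1.76 TPM. ERBB2 was detected and differed between groups, at 3.05 to 4.62 TPM with SAHA, 22.5 to 26.3 TPM with sonidegib, 5.65 to 7.39 TPM with the combination and 9.34 to 11.5 TPM in control libraries. Of 10 markers of leukocytes, fibroblasts, endothelium, blood and liver, 8 did not exceed 1.03 TPM in any library, among them PTPRC at no more than 0.01 TPM and HBB at 0. CD68, a macrophage marker, was at 9.20 to 11.5 TPM with SAHA, 10.6 to 12.3 TPM with sonidegib, 8.97 to 10.0 TPM with the combination and 3.61 to 4.56 TPM in control libraries. The collagen gene COL1A1 was at 10.3 to 12.8 TPM with SAHA, 4.34 to 6.98 TPM with sonidegib, 8.78 to 10.1 TPM with the combination and 2.83 to 4.45 TPM in control libraries. The part of these genes in the results below was not tested. A sum over 17 copies of the 5S ribosomal RNA gene gave 1488 to 12641 TPM in the 6 sonidegib and combination libraries, and each copy stood at 0 in the 6 SAHA and control libraries. Sonidegib against control, the combination against control, the combination against SAHA and the interaction cross these sets of libraries, so a difference in preparation cannot be told apart from the drug there. The combination against sonidegib, and SAHA against control, stay within a set. Mitochondrial ribosomal RNA also moved with the groups, with summed levels of 12413 ± 942 TPM with SAHA, 22238 ± 2227 TPM with sonidegib, 26094 ± 2313 TPM with the combination and 6157 ± 523 TPM in control libraries (SD, n = 3 each). Its part in the results below was not tested beyond a rescaling without ribosomal and mitochondrial RNA, which left 19 members lower with SAHA, 31 with sonidegib and 27 in the combination against control. Members higher numbered 8, 3 and 6 in the same order. Of all 13898 genes then tested, 3478, 3901 and 4401 were lower and 4805, 3891 and 4558 higher.

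All 44 members reached the mean of 1 TPM needed for testing, and their TPM spanned a wide range within single complexes. Comparisons of TPM between genes depend on the transcript lengths used by the quantifier, which are not given. SNRPB, which encodes SmB and SmB′, averaged 410.0 TPM over the 12 libraries, the highest of all members. SNRPD1, whose protein SmD1 takes a single place in the same ring, averaged 19.2 TPM. SNRPB has 1278 exonic bases in the annotation and SNRPD1 has 4909, and the part of length in this contrast was not tested. SNRNP35 had the lowest mean, 8.91 TPM. The summed level of the members was 4979 ± 124 TPM with SAHA, 4140 ± 120 TPM with sonidegib, 4382 ± 262 TPM with the combination and 5957 ± 177 TPM in control libraries (SD, n = 3 each). Every treated library lay below every control library in this sum. The sums of the Sm, LSm, U1, U2 and tri-snRNP subsets had the same order against control, and U11/U12 was the exception, with 67.7 ± 4.96 TPM with SAHA, 28.7 ± 0.692 TPM with sonidegib, 43.9 ± 4.70 TPM with the combination and 55.0 ± 1.25 TPM in control libraries.

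**Figure D1:**
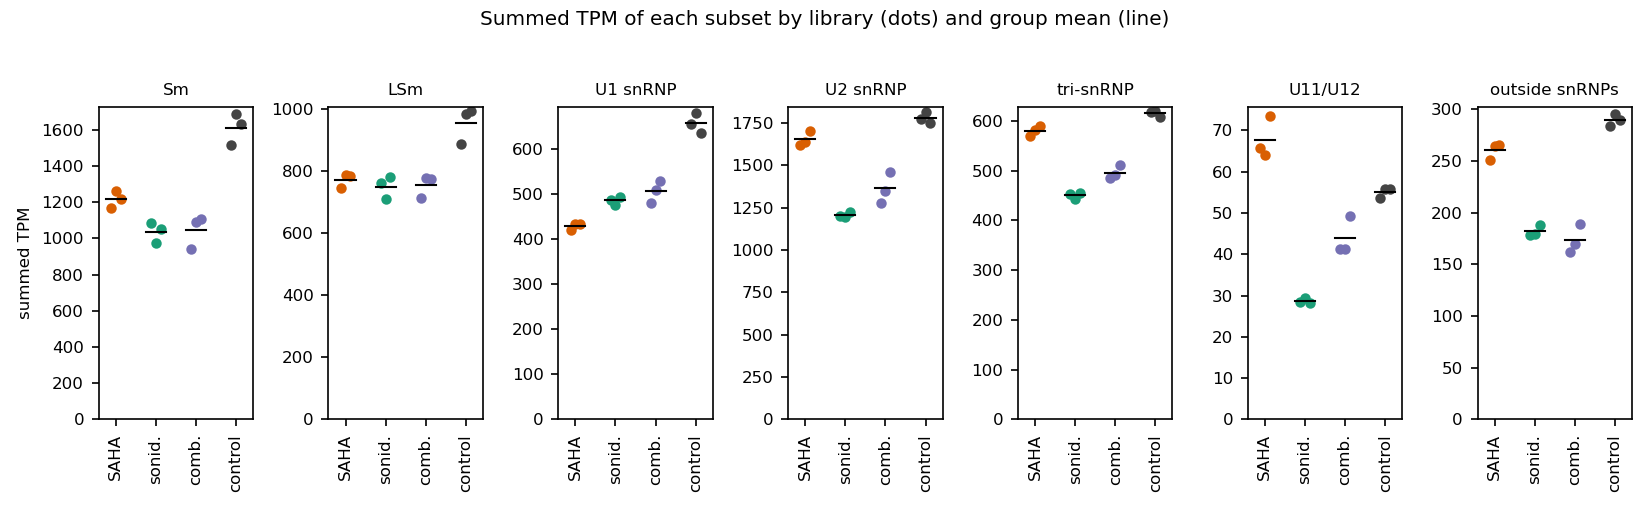
Summed TPM of each subset of members (y axes start at 0) in each library (dots), with the mean of 3 libraries as a line, for SAHA, sonidegib, the combination and control. Treated libraries lie below control in the panels from Sm to tri-snRNP, and in the U11/U12 panel SAHA lies above control at 67.7 against 55.0 TPM.

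With SAHA, 6 members were higher, 23 lower and 15 not called. Among all 13937 genes tested, 58.7% were called, 31.8% higher and 26.9% lower, so falls were more frequent among the members than in the background and rises less frequent. Here and below the background was not matched for level. Every member averaged at least 8.91 TPM, while genes entered the background at a mean of 1 TPM. The median log2 change of the members was -0.19, against 0.05 for all genes tested. With sonidegib, 2 members were higher, 31 lower and 11 not called, where 55.3% of all genes were called, 26.1% higher and 29.2% lower. The median of the members was -0.56, against -0.02 for all genes. With the combination, 5 members were higher, 30 lower and 9 not called, where 63.7% of all genes were called, 29.7% higher and 34% lower. The median was -0.43, against -0.02 for all genes. These 3 comparisons share the control libraries. Leaving out single libraries ended the call of 4 of 29 members with SAHA, 0 of 33 with sonidegib and 6 of 35 with the combination.

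Because of the shared controls, calls in more than 1 of these comparisons are listed without a count. SNRPB, SNRPE, SNRPF, SNRPG, LSM3, LSM7, SNRPC, SF3A2, SF3A3, SF3B3, SF3B4, SF3B6, PRPF8, PRPF31, SNRNP40 and DHX15 were lower in each. SNRPA and SNRPA1 were lower with SAHA and higher with sonidegib, and SF3B5 and EFTUD2 were higher with SAHA, a call that EFTUD2 lost after median-of-ratios scaling, and lower with sonidegib. SNRPD3, LSM8, SNRNP27 and SNRNP48 were higher with SAHA and not called with sonidegib, though LSM8 was called higher with sonidegib under some other settings. SNRPD1 and SNRPD2 were called with neither drug alone.

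**Figure D2:**
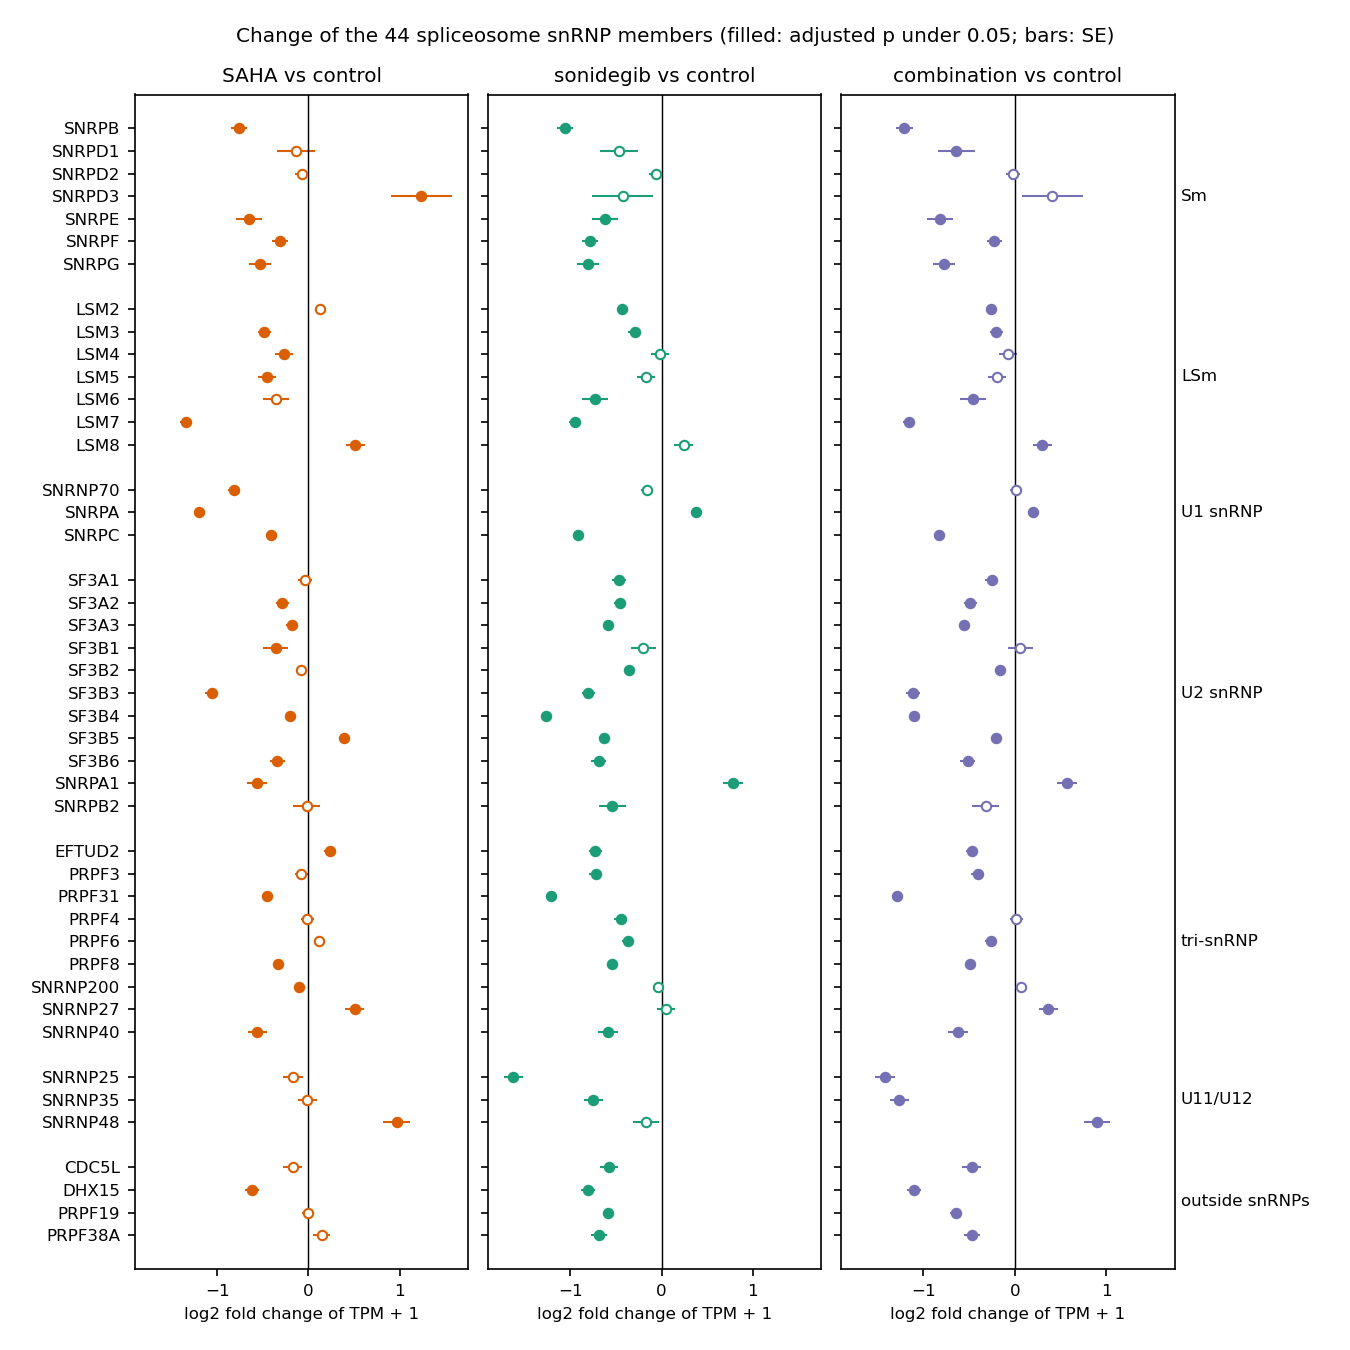
Log2 fold change of TPM + 1 against control (x axes) for the 44 members grouped by subset (rows), with SAHA, sonidegib and the combination in the 3 panels. Points are estimates, bars are the SE and filled points had an adjusted p under 0.05. Most filled points lie left of 0, 23 of 29 with SAHA, 31 of 33 with sonidegib and 30 of 35 with the combination.

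Of the 7 Sm genes, 4 fell with SAHA, 4 with sonidegib and 5 in the combination, and 1 rose, SNRPD3 with SAHA. Among all genes tested, 26.9%, 29.2% and 34% fell in the same order, and 31.8%, 26.1% and 29.7% rose. The subset counts in the next paragraphs stand against the same shares, and each subset holds few genes. The subset medians were -0.31 with SAHA, -0.62 with sonidegib and -0.64 in the combination. SNRPB (ENSG00000125835, chromosome 20, 2461634 to 2470853, GRCh38) lost the most TPM of the ring in each treatment. It had 359, 414 and 385 TPM with SAHA, 329, 290.5 and 323 TPM with sonidegib, 251, 303 and 296 TPM with the combination and 591, 706 and 672 TPM in control libraries. Every treated library lay below every control library. SNRPB had log2 changes of -0.76 ± 0.09 with SAHA (adjusted p = 1.99e-05), -1.06 ± 0.09 with sonidegib (adjusted p = 1.96e-06) and -1.21 ± 0.09 in the combination (adjusted p = 3.84e-07). SNRPB shares 20.0% of its exonic bases with the locus AL049650.1 on the same strand, which averaged 0.656 TPM.

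SNRPE and SNRPG encode the small ring proteins SmE and SmG. SNRPE averaged 60.6 ± 5.99 TPM with SAHA, 62.0 ± 5.26 TPM with sonidegib, 54.4 ± 11.4 TPM with the combination and 96.0 ± 13.8 TPM in control libraries (SD, n = 3 each). SNRPG averaged 241 ± 19.8 TPM with SAHA, 199 ± 22.0 TPM with sonidegib, 204 ± 34.8 TPM with the combination and 347 ± 14.8 TPM in control libraries. For both genes no treated library reached a control library. SNRPF encodes SmF, which forms a preassembled trimer with SmE and SmG. It had 32.4, 32.6 and 33.4 TPM with SAHA, 22.6, 23.1 and 24.4 TPM with sonidegib, 30.8, 36.3 and 38.3 TPM with the combination and 36.9, 43.5 and 42.9 TPM in control libraries. Its libraries were lowest with sonidegib, and those of the combination overlapped with control. Against control, SNRPF had log2 changes of -0.31 with SAHA, -0.78 with sonidegib and -0.22 in the combination (adjusted p = 0.0405). The last of these calls was lost when any of 4 libraries was left out (combination replicates 1 and 2, control replicates 2 and 3, with values of -0.25 to -0.13). CCDC38 on the opposite strand overlaps 3.75% of the exonic bases of SNRPF and averaged 20.4 TPM.

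SNRPD3 (ENSG00000100028, chromosome 22, 24555503 to 24609980) encodes SmD3, the ring partner of SmB, and differed from the rest of the ring. It had 91.0, 89.6 and 69.2 TPM with SAHA, 25.01, 13.8 and 46.6 TPM with sonidegib, 54.5, 38.6 and 46.8 TPM with the combination and 26.8, 43.6 and 35.0 TPM in control libraries. All SAHA libraries lay above all others, while sonidegib libraries were spread on both sides of control. The log2 change of SNRPD3 was 1.24 ± 0.34 with SAHA (adjusted p = 0.00786), -0.43 ± 0.34 with sonidegib (adjusted p = 0.305) and 0.41 ± 0.34 in the combination (adjusted p = 0.305). Without sonidegib replicate 3, the sonidegib change was -0.85 (adjusted p = 0.02). On the opposite strand, GUCD1 overlaps 12.6% of the exonic bases of SNRPD3 and averaged 65.0 TPM, and GGT1 overlaps 12.0% on the same strand. Since strandedness is not given, the SNRPD3 values are uncertain. SNRPD2, encoding SmD2, had 390.4 ± 18.8 TPM with SAHA, 394 ± 32.4 TPM with sonidegib, 405 ± 29.9 TPM with the combination and 411 ± 21.0 TPM in control libraries, and was called in no comparison. SNRPD1 had -0.14 with SAHA, -0.47 with sonidegib and -0.64 in the combination, where only the last was called (adjusted p = 0.0172). That call was lost without combination replicate 2 or control replicate 3 (-0.48 to -0.42), and the sonidegib change passed the threshold without control replicate 1 (-0.63).

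Of the 7 LSm genes, 4 fell and 1 rose with SAHA, 4 fell with sonidegib, and 4 fell and 1 rose in the combination. The subset medians were -0.35 with SAHA, -0.30 with sonidegib and -0.20 in the combination. LSM7 (ENSG00000130332, chromosome 19, 2321517 to 2328620) fell most on the log2 scale. It had 87.9, 86.7 and 85.7 TPM with SAHA, 123, 106 and 113 TPM with sonidegib, 98.0, 105 and 92.3 TPM with the combination and 225, 227 and 212 TPM in control libraries. All treated libraries lay below control, with SAHA lowest and sonidegib the highest of the 3 treatments. The log2 changes of LSM7 were -1.34 ± 0.06 with SAHA (adjusted p = 1.68e-08), -0.95 ± 0.06 with sonidegib (adjusted p = 3.6e-07) and -1.16 ± 0.06 in the combination (adjusted p = 3.66e-08).

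LSM8, which gives the ring its U6-binding nuclear form in place of the cytoplasmic decay form, moved the other way. It had 30.8, 35.9 and 38.8 TPM with SAHA, 27.0, 27.5 and 32.4 TPM with sonidegib, 31.3, 27.7 and 31.2 TPM with the combination and 21.7, 25.3 and 25.8 TPM in control libraries. Every SAHA, sonidegib and combination library lay above every control library, with the highest values under SAHA. LSM8 had log2 changes of 0.52 ± 0.10 with SAHA (adjusted p = 0.00121), 0.24 ± 0.10 with sonidegib (adjusted p = 0.0657) and 0.30 ± 0.10 in the combination (adjusted p = 0.0248). The sonidegib change was called after median-of-ratios scaling, quantile normalization or removal of ribosomal and mitochondrial RNA, and with a replicate block. The combination call was lost when any of 3 libraries was left out (combination replicates 1 and 3, control replicate 1, with values of 0.22 to 0.27). LSM4, the most abundant LSm mRNA at a mean of 316 TPM, had 278 ± 13.5 TPM with SAHA, 331 ± 15.9 TPM with sonidegib, 319 ± 28.2 TPM with the combination and 337 ± 47.4 TPM in control libraries. Its SAHA change of -0.27 (adjusted p = 0.0326) was lost when any of 4 libraries was left out (SAHA replicates 1 and 2, control replicates 2 and 3, with values of -0.28 to -0.19). LSM3 fell in all 3 comparisons, by 0.48 with SAHA, 0.30 with sonidegib and 0.20 in the combination on the log2 scale. The combination call of LSM3 was lost without combination replicate 1 or 2 or control replicate 1 or 2 (values of -0.20 to -0.17). LSM2 and LSM6 fell with sonidegib (-0.43 and -0.73). In the combination LSM2 stood at -0.26, which turned positive under quantile normalization, and LSM6 at -0.46, a call lost without combination replicate 2 (-0.36) or control replicate 3 (-0.37). LSM5 fell with SAHA (-0.45). Calls appeared for LSM2 without SAHA replicate 1 (0.16) and for LSM6 without SAHA replicate 1 (-0.42) or control replicate 1 (-0.43) in the SAHA comparison, for LSM5 with sonidegib without sonidegib replicate 3 (-0.26), and for LSM4 with the combination without control replicate 1 (-0.20).

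The 3 U1 proteins all fell with SAHA, with a median of -0.82. With sonidegib and with the combination, 1 rose, 1 fell and 1 was not called. Those shares, 33.3% each way, lay near the background. Of all genes, 26.1% rose and 29.2% fell with sonidegib, and 29.7% rose and 34% fell in the combination. SNRPA (ENSG00000077312, chromosome 19, 40750637 to 40765389) encodes the U1-A protein, which binds the second stem-loop of U1 snRNA. It had 37.6, 36.8 and 37.8 TPM with SAHA, 115, 114 and 110.3 TPM with sonidegib, 97.6, 96.1 and 105 TPM with the combination and 83.5, 87.3 and 89.9 TPM in control libraries. The groups did not overlap, with SAHA lowest, then control, then the combination, and sonidegib highest. Against control, SNRPA had log2 changes of -1.20 ± 0.05 with SAHA (adjusted p = 6.69e-09), 0.37 ± 0.05 with sonidegib (adjusted p = 7.14e-05) and 0.20 ± 0.05 in the combination (adjusted p = 0.00499).

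SNRNP70 (ENSG00000104852, chromosome 19, 49085419 to 49108605) encodes U1-70K, which binds the first stem-loop. It had 115, 108 and 110.4 TPM with SAHA, 177, 167 and 183 TPM with sonidegib, 181, 207 and 205 TPM with the combination and 195, 207 and 187 TPM in control libraries. SAHA libraries lay far below all others, sonidegib libraries lay just below control, and combination libraries overlapped with control. The log2 changes of SNRNP70 were -0.82 ± 0.06 with SAHA (adjusted p = 7.01e-07), -0.16 ± 0.06 with sonidegib (adjusted p = 0.0501) and 0.01 ± 0.06 in the combination (adjusted p = 0.917). The sonidegib change passed the threshold without control replicate 3 (-0.20) or sonidegib replicate 3 (-0.19). SNRPC, which encodes U1-C, the protein that steadies pairing of U1 with the 5′ splice site, had 268, 289 and 285 TPM with SAHA, 196, 194 and 200.3 TPM with sonidegib, 202, 206 and 218 TPM with the combination and 375, 384 and 358 TPM in control libraries. Control was highest and SAHA second, and the combination lay just above sonidegib. SNRPC had log2 changes of -0.41 ± 0.05 with SAHA (adjusted p = 1.64e-05), -0.92 ± 0.05 with sonidegib (adjusted p = 4.73e-08) and -0.84 ± 0.05 in the combination (adjusted p = 3.93e-08).

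Of the 11 U2 genes, 7 fell and 1 rose with SAHA, 9 fell and 1 rose with sonidegib, and 8 fell and 1 rose in the combination. The medians were -0.20 with SAHA, -0.54 with sonidegib and -0.32 in the combination. SNRPA1 (ENSG00000131876, chromosome 15, 101281510 to 101295282) encodes U2-A′, which forms a dimer with U2-B″, the product of SNRPB2, on a stem-loop of U2 snRNA. It had 26.9, 23.6 and 28.4 TPM with SAHA, 67.6, 67.1 and 69.8 TPM with sonidegib, 52.5, 58.0 and 67.1 TPM with the combination and 34.2, 40.0 and 44.2 TPM in control libraries. SAHA libraries lay below control, and sonidegib and combination libraries above it. Against control, SNRPA1 had log2 changes of -0.56 ± 0.11 with SAHA (adjusted p = 0.000817), 0.78 ± 0.11 with sonidegib (adjusted p = 8.77e-05) and 0.57 ± 0.11 in the combination (adjusted p = 0.000632). Its partner SNRPB2 had 58.2 ± 3.11 TPM with SAHA, 40.5 ± 5.34 TPM with sonidegib, 48.1 ± 11.5 TPM with the combination and 59.1 ± 4.77 TPM in control libraries, and was called with sonidegib alone (-0.54, adjusted p = 0.00877). The combination change of SNRPB2 (-0.32) passed the threshold without combination replicate 3 (-0.49). The ratio of SNRPA1 to SNRPB2 TPM was 0.410 to 0.485 with SAHA, 1.501 to 1.84 with sonidegib, 1.12 to 1.42 with the combination and 0.602 to 0.715 in control libraries. These 4 ranges did not overlap, and the gene of the pair with the higher TPM was SNRPA1 in libraries with sonidegib and SNRPB2 in libraries without it.

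**Figure D3:**
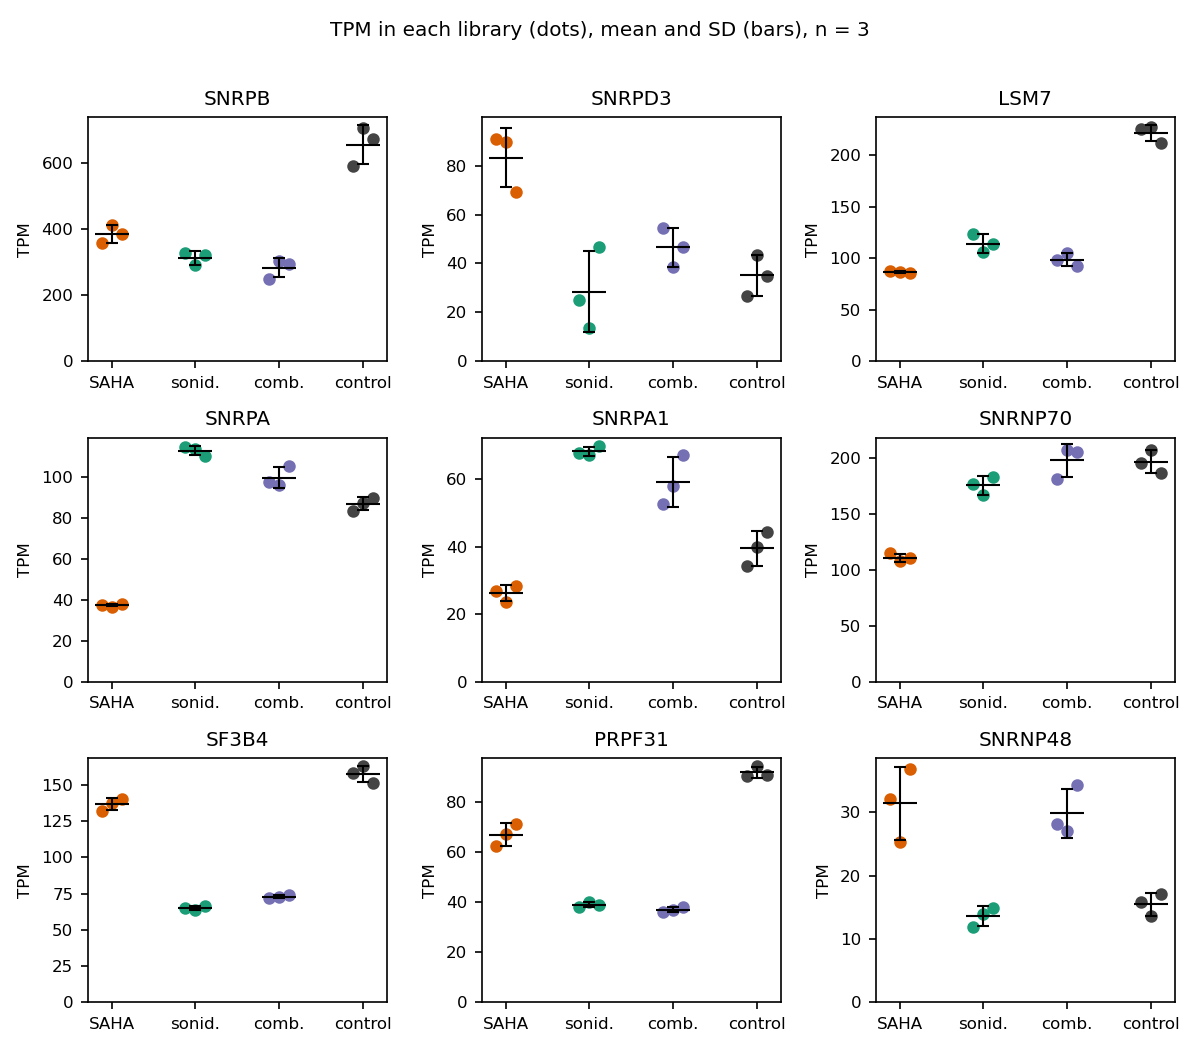
TPM of 9 members in each of the 12 libraries (dots), with the mean and SD of 3 libraries (bars), for SAHA, sonidegib (sonid.), the combination (comb.) and control, with y axes from 0. SNRPA and SNRPA1 are below control with SAHA and above it with sonidegib, whereas SNRPB, LSM7, SF3B4 and PRPF31 are below control in all treated groups.

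The SF3B complex, which clamps the branch point, fell unevenly. SF3B3, a scaffold protein of the complex (ENSG00000189091, chromosome 16, 70523788 to 70577670), had 33.8, 42.9 and 39.5 TPM with SAHA, 44.5, 47.0 and 47.6 TPM with sonidegib, 37.5, 37.6 and 36.1 TPM with the combination and 82.2, 81.7 and 80.6 TPM in control libraries. Every treated library lay far below a tight control group. The log2 changes of SF3B3 were -1.06 ± 0.07 with SAHA (adjusted p = 3.09e-07), -0.80 ± 0.07 with sonidegib (adjusted p = 4.12e-06) and -1.12 ± 0.07 in the combination (adjusted p = 1.6e-07). SF3B4 (ENSG00000143368, chromosome 1, 149923317 to 149928344), which contacts the pre-mRNA upstream of the branch point, had 132, 138 and 140.4 TPM with SAHA, 64.9, 63.8 and 66.4 TPM with sonidegib, 72.2, 72.5 and 74.2 TPM with the combination and 158, 163 and 152 TPM in control libraries. SAHA libraries lay slightly below control and both groups with sonidegib far below it. SF3B4 had log2 changes of -0.20 ± 0.04 with SAHA (adjusted p = 0.00215), -1.26 ± 0.04 with sonidegib (adjusted p = 4.69e-09) and -1.10 ± 0.04 in the combination (adjusted p = 3.68e-09).

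SF3B5 (ENSG00000169976, chromosome 6, 144094881 to 144095573), a small subunit whose gene has a single exon, was the most abundant U2 mRNA. It had 441, 446 and 433 TPM with SAHA, 227, 212 and 209 TPM with sonidegib, 277, 290.3 and 305 TPM with the combination and 326, 349.9 and 329 TPM in control libraries. The groups did not overlap, with SAHA highest, then control, the combination and sonidegib. Against control, SF3B5 had log2 changes of 0.39 ± 0.05 with SAHA (adjusted p = 3.73e-05), -0.63 ± 0.05 with sonidegib (adjusted p = 1.17e-06) and -0.20 ± 0.05 in the combination (adjusted p = 0.0038), and the last was not called after median-of-ratios scaling and was 0.056 after quantile normalization. SF3B1, the branch-point binding subunit that is mutated in several cancers, fell with SAHA (-0.36, adjusted p = 0.0397), a call lost when any of 5 libraries was left out (SAHA replicates 1 and 2 and each control replicate, with values of -0.40 to -0.22). It was not called with sonidegib (-0.20) or the combination (0.06). SF3B6, the p14 protein at the branch point, fell in each comparison (-0.34 with SAHA, -0.69 with sonidegib and -0.51 in the combination). SF3B2 fell with sonidegib (-0.36) and with the combination (-0.16), where the call was lost without combination replicate 1 (-0.13) or control replicate 2 (-0.12) and after median-of-ratios scaling, and the sign turned under quantile normalization. The SF3A proteins, which join SF3B to the U2 core, fell with sonidegib by 0.47 (SF3A1), 0.46 (SF3A2) and 0.58 (SF3A3), and with the combination by 0.25, 0.49 and 0.55 in the same order. With SAHA, SF3A2 fell by 0.29 and SF3A3 by 0.18, and the SF3A3 call was lost without SAHA replicate 1 (-0.14) or control replicate 2 (-0.15). SF3A1 was at -0.04 with SAHA and not called. PLEKHJ1 on the opposite strand overlaps 12.7% of the exonic bases of SF3A2 and averaged 35.7 TPM, so the SF3A2 values are uncertain.

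Of the 9 tri-snRNP genes, 4 fell and 2 rose with SAHA, 7 fell with sonidegib, and 6 fell and 1 rose in the combination. The medians were -0.08 with SAHA, -0.54 with sonidegib and -0.40 in the combination. PRPF31 (ENSG00000105618, chromosome 19, 54115410 to 54131719), which holds U4 and U6 together with U5 and whose mutations cause retinitis pigmentosa, had 62.4, 67.3 and 71.3 TPM with SAHA, 38.0, 40.1 and 39.0 TPM with sonidegib, 36.3, 36.9 and 38.0 TPM with the combination and 90.4, 94.5 and 91.0 TPM in control libraries. Control libraries were highest and SAHA libraries second, and the groups with sonidegib were lowest. The log2 changes of PRPF31 were -0.45 ± 0.06 with SAHA (adjusted p = 2.86e-05), -1.21 ± 0.06 with sonidegib (adjusted p = 2.49e-08) and -1.29 ± 0.06 in the combination (adjusted p = 5.55e-09). TFPT, on the opposite strand, overlaps 9.95% of the exonic bases of PRPF31 and averaged 47.5 TPM, so part of these values is uncertain.

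PRPF8, the scaffold at the catalytic centre, fell by 0.34 with SAHA, 0.54 with sonidegib and 0.50 in the combination on the log2 scale. SNRNP40, a WD40 protein of U5, fell by 0.56, 0.58 and 0.62 in the same order. EFTUD2, the U5 GTPase, rose with SAHA (0.23) and fell with sonidegib (-0.73) and with the combination (-0.47). The rise with SAHA was not called after median-of-ratios scaling. PRPF3, PRPF4 and PRPF6, proteins of the U4/U6 and tri-snRNP particles, were not called with SAHA and fell with sonidegib (-0.72, -0.45 and -0.37). In the combination PRPF3 and PRPF6 were lower than control (-0.40 and -0.26), and PRPF4 did not pass the test (0.02). PRPF4 had 18.2, 20.0 and 21.1 TPM with SAHA, 14.4, 13.5 and 15.1 TPM with sonidegib, 19.3, 20.2 and 21.0 TPM with the combination and 19.0, 20.2 and 20.6 TPM in control libraries. Only the sonidegib libraries stood apart, below all others. CDC26 on the opposite strand overlaps 5.76% of the exonic bases of PRPF4 and averaged 38.7 TPM, above the mean of PRPF4 itself, 18.6 TPM. Values of PRPF4 are therefore uncertain.

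SNRNP27 and SNRNP200 departed from the rest of the subset. SNRNP27, a tri-snRNP protein with a serine-arginine region, had 71.6, 57.8 and 70.4 TPM with SAHA, 48.7, 44.5 and 50.7 TPM with sonidegib, 56.6, 59.5 and 64.1 TPM with the combination and 42.2, 44.2 and 53.2 TPM in control libraries. Libraries with SAHA, with or without sonidegib, lay above control. SNRNP27 had log2 changes of 0.51 ± 0.10 with SAHA (adjusted p = 0.00126), 0.05 ± 0.10 with sonidegib (adjusted p = 0.725) and 0.37 ± 0.10 in the combination (adjusted p = 0.00879). MXD1 overlaps 10.4% of the exonic bases of SNRNP27 on the same strand and averaged 5.98 TPM. SNRNP200, the helicase that unwinds U4 from U6, was the most abundant tri-snRNP mRNA and varied little, with 127 ± 2.28 TPM with SAHA, 132 ± 0.0862 TPM with sonidegib, 143 ± 2.67 TPM with the combination and 136 ± 4.58 TPM in control libraries (SD, n = 3 each). Its SAHA change of -0.10 (adjusted p = 0.0455) was lost when any of 4 libraries was left out (SAHA replicates 1 and 3, control replicates 1 and 2, with values of -0.10 to -0.08).

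The U11/U12 proteins of the minor spliceosome diverged from each other. SNRNP48 (ENSG00000168566, chromosome 6, 7590199 to 7611967) encodes the U11 protein that reads the 5′ splice site of minor introns. It had 32.1, 25.4 and 36.9 TPM with SAHA, 11.9, 14.0 and 15.0 TPM with sonidegib, 28.2, 27.0 and 34.3 TPM with the combination and 15.8, 13.6 and 17.1 TPM in control libraries. Both groups with SAHA lay above both groups without it. Against control, SNRNP48 had log2 changes of 0.96 ± 0.14 with SAHA (adjusted p = 0.000126), -0.18 ± 0.14 with sonidegib (adjusted p = 0.322) and 0.90 ± 0.14 in the combination (adjusted p = 0.000186).

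SNRNP25 (ENSG00000161981, chromosome 16, 53010 to 57669), another U11 protein, had 22.5, 26.6 and 23.5 TPM with SAHA, 9.15, 8.37 and 7.09 TPM with sonidegib, 8.31, 10.0 and 10.4 TPM with the combination and 26.9, 28.6 and 26.2 TPM in control libraries. The groups with sonidegib were low, and SAHA overlapped with control. The log2 changes of SNRNP25 were -0.17 ± 0.11 with SAHA (adjusted p = 0.195), -1.62 ± 0.11 with sonidegib (adjusted p = 2.75e-07) and -1.42 ± 0.11 in the combination (adjusted p = 3.96e-07), the largest fall of any member with sonidegib and with the combination. SNRNP35, the U11 relative of U1-70K, had 11.2, 12.1 and 13.0 TPM with SAHA, 7.44, 7.07 and 6.04 TPM with sonidegib, 4.71, 4.13 and 4.63 TPM with the combination and 10.8, 13.5 and 12.4 TPM in control libraries. SAHA overlapped with control, sonidegib lay below both, and the combination lay below sonidegib. SNRNP35 had log2 changes of -0.01 ± 0.10 with SAHA (adjusted p = 0.934), -0.75 ± 0.10 with sonidegib (adjusted p = 9.23e-05) and -1.26 ± 0.10 in the combination (adjusted p = 9.1e-07). RILPL1 on the opposite strand overlaps 40.1% of the exonic bases of SNRNP35 and averaged 6.75 TPM, close to the level of SNRNP35 itself, and POLR3K overlaps 5.0% of those of SNRNP25 at 22.8 TPM. Values of both members are therefore uncertain.

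Of the 4 proteins outside the snRNPs, all fell with sonidegib and with the combination, and 1, DHX15, fell with SAHA. The share that fell with SAHA, 25%, was near the 26.9% of all genes. With sonidegib 29.2% of all genes fell, and in the combination 34%. DHX15 (ENSG00000109606, chromosome 4, 24517441 to 24584550), the helicase that takes the spliceosome apart after use, had 54.5, 54.8 and 59.3 TPM with SAHA, 46.1, 52.1 and 49.5 TPM with sonidegib, 36.4, 38.7 and 45.1 TPM with the combination and 84.9, 86.97 and 88.4 TPM in control libraries. The groups did not overlap, with control highest and the combination lowest. Against control, DHX15 had log2 changes of -0.62 ± 0.08 with SAHA (adjusted p = 3.26e-05), -0.81 ± 0.08 with sonidegib (adjusted p = 5.31e-06) and -1.10 ± 0.08 in the combination (adjusted p = 2.48e-07). PRPF19, the ubiquitin ligase at the heart of the PRPF19 complex, had 147 ± 8.33 TPM with SAHA, 98.1 ± 4.70 TPM with sonidegib, 94.0 ± 5.15 TPM with the combination and 148 ± 5.44 TPM in control libraries (SD, n = 3 each). The SAHA and control means differed by less than their spread. CDC5L, its partner in that complex, and PRPF38A, which acts during activation, were not called with SAHA (-0.17 and 0.15). They fell with sonidegib (-0.58 and -0.68) and with the combination (-0.47 and -0.47).

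The effect of SAHA was also measured in cells that had received sonidegib. In the combination against sonidegib, 12 members were higher, 5 lower and 27 not called, where 38.5% of all genes were called, 17.5% higher and 21% lower. The median of the members was 0.10, against -0.02 for all genes. This comparison shares no library with SAHA against control. Of the 23 members lower with SAHA alone, 4 were lower when SAHA followed sonidegib (SNRPA, LSM7, SF3B3 and DHX15), 3 were higher (SNRPF, SF3B4 and SNRNP200) and 16 were not called. Among the 3746 genes of the whole table that were lower with SAHA alone, 51.5% were lower and 2.19% higher when SAHA followed sonidegib. Of the 6 members higher with SAHA alone, 4 were higher again (SNRNP48, SF3B5, SNRNP27 and EFTUD2), where the share among all genes was 43.4%. The largest rises against sonidegib were in SNRNP48 (1.08 ± 0.14, adjusted p = 0.000148), SNRPF (0.56 ± 0.09, adjusted p = 0.000407) and PRPF4 (0.47 ± 0.07, adjusted p = 0.00043). The largest falls were in SNRNP35 (-0.51 ± 0.10, adjusted p = 0.00244), SF3B3 (-0.32 ± 0.07, adjusted p = 0.00608) and DHX15 (-0.29 ± 0.08, adjusted p = 0.0112). Of the 17 calls, 6 were lost without single libraries: LSM2 without combination replicate 2 or 3 or sonidegib replicate 2 (0.14 to 0.16), LSM7 without any of 4 libraries (-0.21 to -0.15), SF3A1 without any of 5 libraries (0.16 to 0.24), SNRNP200 without any of 6 libraries (0.10 to 0.13), SNRNP27 without any of 4 libraries (0.27 to 0.33) and SNRPA without combination replicate 2 or sonidegib replicate 1 (-0.17 to -0.15). Calls appeared for SF3B6 without combination replicate 1 (0.25), SNRNP70 without combination replicate 1 (0.23), SNRPB2 without combination replicate 1 (0.40) and SNRPD3 without sonidegib replicate 3 (1.26).

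The interaction is the SAHA effect in sonidegib-treated cells minus the SAHA effect in cells without sonidegib, and it tests that difference directly. It was positive for 22 members, negative for 2 and not called for 20, where 31.4% of all genes were called, 11.8% positive and 19.7% negative. The median of the members was 0.34, against -0.07 for all genes. Positive calls came from 3 of 7 Sm genes, 4 of 7 LSm genes, 3 of 3 U1 genes, 5 of 11 U2 genes, 6 of 9 tri-snRNP genes and 1 of the 4 outside the snRNPs. The largest were in LSM7 (1.13 ± 0.09, adjusted p = 6.61e-06), SNRPA (1.02 ± 0.07, adjusted p = 2.43e-06) and SNRNP70 (0.99 ± 0.09, adjusted p = 1.62e-05). SNRNP70 shows the pattern in its levels, with 181, 207 and 205 TPM in the combination against 177, 167 and 183 TPM with sonidegib, and 115, 108 and 110.4 TPM with SAHA against 195, 207 and 187 TPM in control libraries. SNRNP70 fell with SAHA in cells without sonidegib, and in cells with sonidegib the difference was just not called (0.17, adjusted p = 0.0549). That difference was called higher after median-of-ratios scaling, after quantile normalization and after removal of ribosomal and mitochondrial RNA. The negative calls were SNRNP35 (-0.50 ± 0.15, adjusted p = 0.0236) and LSM8 (-0.46 ± 0.15, adjusted p = 0.0343). Each was lost without any of 5 libraries, with values of -0.48 to -0.42 for SNRNP35 and -0.44 to -0.38 for LSM8. Combination replicate 2, SAHA replicate 3 and control replicate 1 were among the 5 in both cases. Both calls were also lost after median-of-ratios scaling, under which 28 members were positive and 0 negative, where 2581 of all genes were positive and 2251 negative. Without the filter on low values, 16 members were positive and 1 negative, where 1364 of 29345 genes were positive and 2601 negative. SNRPG, LSM5, LSM6, LSM8, SF3B1, SNRNP40 and DHX15 lost their calls there. Of the positive calls, 6 were lost without single libraries: DHX15 without any of 9 libraries (0.24 to 0.35), LSM5 without any of 7 libraries (0.37 to 0.43), LSM6 without any of 7 libraries (0.46 to 0.64), SF3B1 without any of 7 libraries (0.48 to 0.62), SNRNP40 without combination replicate 2 or sonidegib replicate 2 or control replicate 2 (0.43 to 0.50) and SNRPG without any of 7 libraries (0.46 to 0.54). Calls appeared for LSM4 without control replicate 1 (0.33), SF3A2 without combination replicate 3 (0.30) or control replicate 3 (0.31) or sonidegib replicate 2 (0.30), SF3A3 without combination replicate 1 (0.26), SNRNP25 without combination replicate 1 (0.46), SNRPA1 without control replicate 1 (0.45) and SNRPE without combination replicate 2 (0.58). The interaction crosses the sets of libraries with and without 5S ribosomal RNA. Of all called genes 37.5% were positive, against 53.4% after median-of-ratios scaling and 50.3% after quantile normalization.

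**Figure D4:**
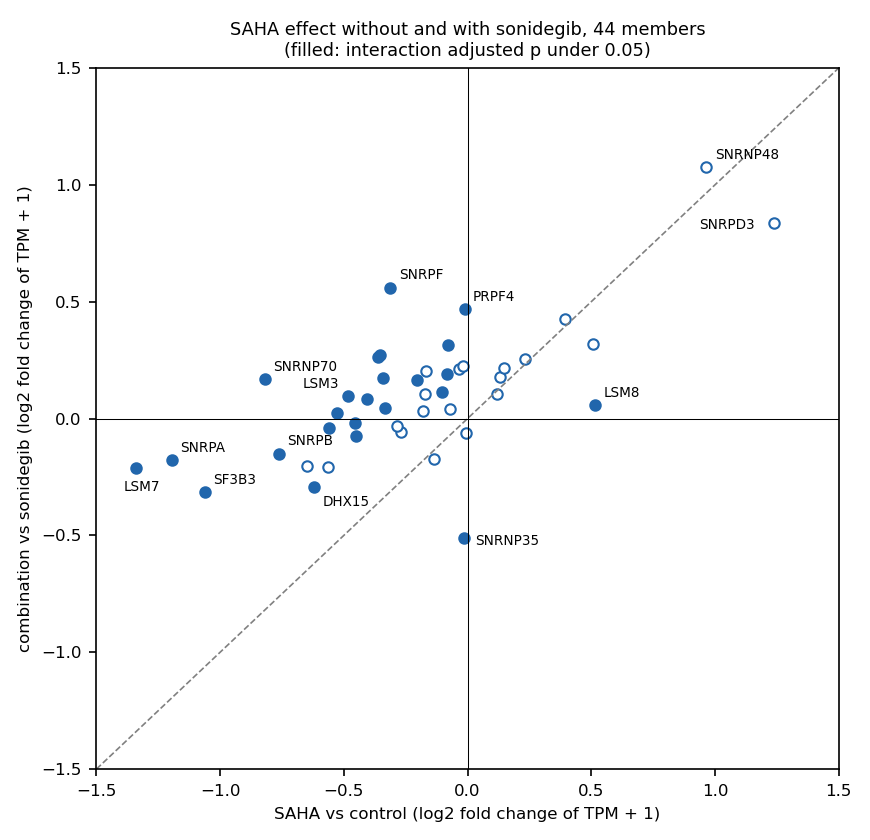
Log2 fold change of TPM + 1 in the combination against sonidegib (y axis) and in SAHA against control (x axis) for the 44 members; the dashed line marks equal changes, and filled points had an interaction with an adjusted p under 0.05. The filled points above the line are the 22 members with a positive interaction, and LSM8 and SNRNP35 are the filled points below it.

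The combination was also compared with SAHA alone, from which it differs by the sonidegib pretreatment. This comparison crosses the sets of libraries with and without 5S ribosomal RNA. In the combination against SAHA, 8 members were higher, 19 lower and 17 not called, where 50.9% of all genes were called, 18% higher and 33% lower. The median of the members was -0.21, against -0.12 for all genes, and the count of higher members lay close to the background. Scaling mattered here, since 35.3% of all called genes were higher as deposited, 49.6% after median-of-ratios scaling and 50.1% after quantile normalization. Members higher and lower numbered 10 and 14 after median-of-ratios scaling and 12 and 15 after quantile normalization. Among all 13937 genes tested, higher and lower numbered 3588 and 3645 after the first and 3708 and 3686 after the second. The member medians were then -0.08 and -0.01, against 0 for all genes under both. Of the 31 members lower with sonidegib alone, 19 were lower when sonidegib preceded SAHA and 2 were higher (LSM3 and LSM7), where 65.8% and 4.05% of all genes lower with sonidegib were so. SNRPA and SNRPA1, the 2 members higher with sonidegib alone, were both higher, where 43.1% of all genes higher with sonidegib alone were so. SNRPA had 97.6, 96.1 and 105 TPM in the combination and 37.6, 36.8 and 37.8 TPM with SAHA, a log2 change of 1.39 ± 0.05 (adjusted p = 1.04e-08). SNRPA1 changed by 1.14 ± 0.11 (adjusted p = 6.04e-06) and SNRNP70 by 0.83 ± 0.06 (adjusted p = 1.28e-06). The largest falls were in SNRNP25 (-1.25 ± 0.11, adjusted p = 2.56e-06), SNRNP35 (-1.25 ± 0.10, adjusted p = 2.31e-06) and SF3B4 (-0.90 ± 0.04, adjusted p = 6.23e-08). Of the 27 calls, 7 were lost without single libraries: CDC5L without any of 4 libraries (-0.28 to -0.23), LSM5 without any of 5 libraries (0.20 to 0.29), LSM7 without any of 5 libraries (0.13 to 0.19), PRPF8 without combination replicate 2 or 3 or SAHA replicate 3 (-0.15 to -0.14), SF3A1 without any of 4 libraries (-0.19 to -0.17), SF3A2 without any of 4 libraries (-0.21 to -0.16) and SF3B1 without combination replicate 3 or SAHA replicate 1 or 2 (0.28 to 0.42). Calls appeared for LSM8 without SAHA replicate 1 (-0.30), SF3B6 without combination replicate 3 (-0.26) or SAHA replicate 2 (-0.24), SNRPB2 without combination replicate 3 (-0.47) and SNRPD1 without combination replicate 3 (-0.68) or SAHA replicate 1 (-0.62), and quantile normalization turned the sign of PRPF8.

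The snRNAs themselves varied widely within groups and were not compared. Of 1599 snRNA genes and copies by name, 26 were above 0 in some library. RNU4-2, the U4 gene shown above, had 223, 328 and 347 TPM with SAHA, 63.5, 18.4 and 502 TPM with sonidegib, 285, 171 and 16.4 TPM with the combination and 436, 457 and 350.3 TPM in control libraries. RNU1-1 was listed at 0 in 7 libraries and RNU2-1 in 8. The 64 pseudogenes named after members summed to no more than 8.19 TPM in any library.

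Genes that act with the members were counted against the background of all genes tested, of which 26.9% fell with SAHA, 29.2% with sonidegib and 34% in the combination. The shares of all genes that rose were 31.8%, 26.1% and 29.7% in the same order. Of 16 other snRNP and tri-snRNP genes tested, 2 rose and 9 fell with SAHA, 1 rose and 13 fell with sonidegib, and 1 rose and 13 fell in the combination. Among them LUC7L2, a U1-associated protein, fell in each (-1.23 with SAHA, -0.90 with sonidegib and -1.45 in the combination). Its relative LUC7L fell with sonidegib (-1.30) and with the combination (-1.01), and USP39, a tri-snRNP protein, rose with sonidegib (0.21) and with the combination (0.50). Of 6 genes for recognition of the branch point and the 3′ splice site, 1 rose and 3 fell with SAHA, and 4 fell both with sonidegib and with the combination. U2AF2, the large subunit of the factor that binds the polypyrimidine tract and brings in U2, had 68.8, 66.9 and 64.2 TPM with SAHA, 49.8, 43.7 and 52.6 TPM with sonidegib, 25.9, 28.0 and 28.7 TPM with the combination and 239, 263 and 244 TPM in control libraries. The groups did not overlap, and every treated library was far below control. The log2 changes of U2AF2 were -1.88 ± 0.07 with SAHA (adjusted p = 3.75e-09), -2.33 ± 0.07 with sonidegib (adjusted p = 2.26e-09) and -3.13 ± 0.07 in the combination (adjusted p = 1.1e-10), each larger in size than the change of any member in the same comparison. Its partner U2AF1 fell in each (-0.60 with SAHA, -0.96 with sonidegib and -1.26 in the combination). SF1, which first binds the branch point, rose with SAHA (0.52) and fell with sonidegib (-0.59) and in the combination (-0.47).

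Of 17 genes that assemble and import snRNPs, 3 rose and 7 fell with SAHA, 1 rose and 8 fell with sonidegib, and 3 rose and 6 fell in the combination, where the share that fell (35.3%) was near the background of 34%. PRMT5 and its partner WDR77, which methylate Sm proteins before ring assembly, fell with sonidegib (-1.14 and -1.63) and in the combination (-1.12 and -1.32). WDR77 had 28.4, 23.7 and 28.3 TPM with sonidegib and 81.3, 90.8 and 81.8 TPM in control libraries, with no overlap. GEMIN4 of the SMN complex fell in each (-0.90 with SAHA, -1.13 with sonidegib and -1.49 in the combination). The 21 genes of the PRPF19 complex and the catalytic stage differed, with 8 higher and 6 lower with SAHA, 3 and 6 with sonidegib, and 7 and 6 in the combination, and medians of 0.02, -0.12 and 0.02. The 28.6% that fell in each of these was near or below the background with SAHA (26.9%), with sonidegib (29.2%) and in the combination (34%). The shares that rose were 38.1% with SAHA, 14.3% with sonidegib and 33.3% in the combination. Of all genes, 31.8%, 26.1% and 29.7% rose. DHX16, a helicase that acts before the first step of splicing, rose with SAHA (0.92) and in the combination (0.60). XAB2 rose in each, most in the combination (0.80), and BCAS2, a partner of PRPF19 and CDC5L, fell with sonidegib (-0.92) and in the combination (-0.70). Of 4 other U11/U12 genes, 1 rose and 1 fell with SAHA, 2 rose and 1 fell with sonidegib, and 2 rose and 2 fell in the combination. Of 5 related Sm and LSm genes that act in other particles, 2 rose and 3 fell with SAHA, 0 rose and 2 fell with sonidegib, and 0 rose and 2 fell in the combination. ZMAT5, a U11/U12 protein, was among the rises in each (0.62 with SAHA, 0.29 with sonidegib and 0.32 in the combination).

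The promoters of the members were searched for short motifs. RefSeq promoters of 250 bases before to 50 after the start (GRCh38.p14) were found for 39 of the 44 members. The ETS letters CCGGAAG, searched on both strands, were in 18 of these 39 (46.2%), against 10.7% of all 27305 promoters and 20.1% of the 9759 promoters of tested genes. ATGGCGG, part of the YY1 motif, was in 8 (20.5%), against 5.72% of all promoters and 10.7% of those of tested genes. CCAAT was in 46.2% of member promoters and 37.1% of those of tested genes, and the GC box GGGCGG in 64.1% and 71.3%. The E-box CACGTG was in 7.69% and 10.4%, the NRF1 core GCATGC in 5.13% and 9.05%, and TATAAA in 2.56% and 5.3%. These are matches of letters and not sites shown to be bound.

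The 250 bases before the start are shown for SNRPB, which fell with each drug, SNRPA1, which fell with SAHA and rose with sonidegib, SF3B5, which did the opposite, and SNRNP48, which rose with SAHA. They run 5′ to 3′ along the gene's own strand, and capitals mark the ETS, YY1, CCAAT and E-box letters given above, written as their reverse complement where the match is on the other strand.
SNRPB, chr20:2470790-2471039, minus strand: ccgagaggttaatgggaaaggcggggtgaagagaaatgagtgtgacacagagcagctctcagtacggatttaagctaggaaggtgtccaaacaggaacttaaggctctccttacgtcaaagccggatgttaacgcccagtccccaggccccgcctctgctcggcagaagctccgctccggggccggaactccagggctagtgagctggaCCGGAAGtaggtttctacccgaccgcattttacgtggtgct
SNRPA1, chr15:101295249-101295498, minus strand: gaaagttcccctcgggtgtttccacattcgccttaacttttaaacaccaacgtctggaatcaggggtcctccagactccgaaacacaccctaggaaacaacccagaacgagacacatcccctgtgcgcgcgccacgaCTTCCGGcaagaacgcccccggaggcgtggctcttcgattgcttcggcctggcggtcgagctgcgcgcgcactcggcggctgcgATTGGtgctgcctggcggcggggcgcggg
SF3B5, chr6:144095574-144095823, minus strand: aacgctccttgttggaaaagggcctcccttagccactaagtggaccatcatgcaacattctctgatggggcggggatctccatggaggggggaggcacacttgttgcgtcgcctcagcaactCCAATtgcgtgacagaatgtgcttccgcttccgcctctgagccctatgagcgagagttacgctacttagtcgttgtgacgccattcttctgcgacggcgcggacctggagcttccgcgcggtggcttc
SNRNP48, chr6:7589948-7590197, plus strand: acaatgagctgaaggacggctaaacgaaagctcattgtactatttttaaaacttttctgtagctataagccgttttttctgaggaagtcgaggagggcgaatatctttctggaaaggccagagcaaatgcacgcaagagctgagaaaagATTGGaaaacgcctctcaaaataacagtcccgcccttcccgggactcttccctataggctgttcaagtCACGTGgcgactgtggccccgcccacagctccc
The SNRPB window holds an ETS match, the SNRPA1 window an ETS match and a CCAAT box, the SF3B5 window a CCAAT box, and the SNRNP48 window a CCAAT box and an E-box.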

How the data were processed

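RNA sequencing libraries of MDA-MB-468 cells were grouped by the treatment in the labels, 3 per group. Per the labels' protocols, TRIzol was used to isolate RNA and library construction was Illumina's standard one. The deposited values are TPM per gene and library, made by the authors. The submitters' processing notes name Bowtie2 2.4.1 and GRCh38. The quantifier, annotation release, strandedness and RNA selection are not given in the sources used here, and the depth is unknown.

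Log2(TPM + 1) was fitted with limma 3.58.1 in R 4.3.3 over 13937 genes whose mean reached 1 TPM, with 4 group means, 8 residual degrees of freedom and an intensity trend. On this scale fold changes of low genes are understated. Tests were two-sided, with Benjamini-Hochberg adjustment over all genes tested and a threshold of 0.05. The fit was tested on simulated data. Members and other gene lists were chosen with earlier results of these data known. Per-library values are given for called members without overlap of groups: the 4 largest rises and falls against control, the 3 largest of the other comparisons (overlap allowed for the interaction), and per subset the highest mean and largest change. Other lists name up to 2 rises and 2 falls each. SF3B1, SNRPE, SNRPG and further members were named after their values were seen. Coordinates come from GENCODE release 29 by gene identifier. By these coordinates, exons of 13 members overlap a gene on the opposite strand that averaged at least 1 TPM. Alternatives were the pseudocount 0.1, no filter on low values, median-of-ratios scaling, quantile normalization, removal of ribosomal and mitochondrial RNA, no trend, only the groups compared, a replicate block and leaving out each library.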

Additional observations from a re-analysis of the deposited data

Results flagged for a closer look

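The SAHA effect differed between cells with and without sonidegib for 14 of the members named by rule, by limma's interaction test (adjusted p under 0.05). LSM7, SNRPA, SNRNP70, SNRNP35 and LSM8 were among those named for a large called interaction, so their passing was fixed in advance. Some others were named for changes in comparisons that share its libraries, so the 14 are a list and not a test of the members. Among all genes tested, 31.4% were called in the interaction. The values are the log2 change in the combination against sonidegib minus that in SAHA against control. They were 1.13 for LSM7, 1.02 for SNRPA, 0.99 for SNRNP70, 0.87 for SNRPF and 0.75 for SF3B3. For SNRPB the difference was 0.61, for SNRPC 0.49, for PRPF4 0.48, for PRPF31 0.38 and for SF3B4 0.37. It was 0.33 for DHX15, 0.22 for SNRNP200, -0.46 for LSM8 and -0.50 for SNRNP35.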

How the results depend on the processing

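Under other settings 706 values were checked, all of them from called changes of members named by rule. Of these, 672 kept their direction and their call, 33 lost the threshold and 1 changed sign. The sign change was SF3B5 in the combination against control, at 0.056 after quantile normalization (-0.20 as reported). Calls gained under a setting could not enter this count. They included LSM8 with sonidegib, SNRNP70 in the combination against sonidegib, and SNRPA1 and SNRNP25 in the interaction. Members outside the rule, such as LSM2, SF3B2 and PRPF8, were not in it either. Without the filter on low values, members higher in the combination against SAHA numbered 5 (8 as reported). Members with a positive interaction then numbered 16 (22 as reported), and those with a negative interaction 1 (2 as reported). That negative count was 0 after median-of-ratios scaling and 1 after quantile normalization. Genes of the whole table with a positive interaction numbered 1364 without the filter and 2581 after median-of-ratios scaling (1642 as reported). That scaling moved the median of all genes by 0.12 in the combination against SAHA and by 0.10 in the interaction. Quantile normalization gave 5 members higher with sonidegib (2 as reported) and 8 with the combination (5 as reported), and turned the signs of LSM2 and SF3B2 with the combination and of PRPF8 in the combination against SAHA. Genes of the whole table higher under it numbered 3883 with sonidegib (3641 as reported) and 4666 with the combination (4140 as reported). With only the groups compared, 3 members were lower in the combination against sonidegib (5 as reported), and 2724 of all genes (2928 as reported). Without the filter on low values, 2438 of 29345 genes were higher in the combination against SAHA (2506 of 13937 as reported). Genes with a negative interaction then numbered 2601 (2739 as reported). They numbered 2251 after median-of-ratios scaling and 2345 after quantile normalization. Of the calls against control, median-of-ratios scaling ended those of EFTUD2 with SAHA and of LSM3, SF3B2 and SF3B5 with the combination. Quantile normalization ended those of SNRNP200 with SAHA, SF3B2 with sonidegib, and SNRPF, LSM2, LSM3, SF3A1, SF3B2, SF3B5 and PRPF6 with the combination. The causes were not tested.

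Without single libraries, members higher and lower ranged from 6 to 7 and 19 to 22 with SAHA, 2 to 2 and 31 to 34 with sonidegib, 4 to 5 and 26 to 31 with the combination, 5 to 7 and 15 to 20 in the combination against SAHA, 8 to 14 and 3 to 5 in the combination against sonidegib, and 17 to 23 and 0 to 2 in the interaction. The lowest of these were 5 members higher in the combination against SAHA without SAHA replicate 1 or 2, 3 lower in the combination against sonidegib without sonidegib replicate 1, and 0 with a negative interaction without combination replicate 2, SAHA replicate 3 or control replicate 1. All genes higher and lower ranged from 3990 to 4418 and 3266 to 3640 with SAHA, 3108 to 3639 and 3529 to 3861 with sonidegib, and 3609 to 4141 and 4238 to 4802 with the combination. The ranges were 2073 to 2499 and 3956 to 4685 against SAHA, 1812 to 2501 and 2438 to 2931 against sonidegib, and 1336 to 1686 and 2331 to 2909 in the interaction. Deviations of same-numbered libraries correlated at -0.0586 to 0.111, with 1 of 18 pairs over 0.1, so the replicate numbers were not taken to pair the libraries. Even so, 8 of 12 libraries correlated best with their own number, a hint of pairing from the data and not the design. With a replicate block, members higher and lower numbered 6 and 24 with SAHA, 3 and 32 with sonidegib, 5 and 31 with the combination, 9 and 22 in the combination against SAHA, 13 and 5 in the combination against sonidegib, and 25 and 2 in the interaction. All genes higher and lower numbered 4562 and 3879, 3824 and 4252, 4263 and 4881, 2680 and 4784, 2689 and 3128, and 1864 and 2934 in the same order.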
